A study of Mus musculus with 40 samples.

Results

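The extensor digitorum longus (EDL) is a fast-twitch muscle of the mouse hindlimb, and the 20 vehicle-treated EDL libraries described here ask how the effect of losing Tsc1 in muscle differs between 3 and 9 months of age. They were all the libraries of the 40 in the series that came from vehicle-injected mice of both genotypes, with 5 libraries in each of 4 groups: 3mCON, 3mTSCmKO, 9mCON and 9mTSCmKO. CON mice carried Tsc1fl/fl alleles on the Tsc1tm1Djk/J strain and, per the study's methods, were littermates without Cre recombinase, and TSCmKO mice were the Tsc1 muscle knockout of the same strain. All of these mice received vehicle by intraperitoneal injection for 3 days before the muscle was taken, at postnatal month 3 or 9, and polyadenylated RNA was sequenced from whole muscle. The promoter that drives Cre and the sex of these mice are not given in the sources used here. The measure was the interaction, the log2 fold change of 9mTSCmKO against 9mCON minus that of 3mTSCmKO against 3mCON, fitted over all 20 libraries by edgeR's quasi-likelihood test, and a gene was called where its Benjamini-Hochberg adjusted p-value was under 0.05.

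Tsc1 and Tsc2 form a complex that keeps the GTPase Rheb inactive, and without it the kinase complex mTORC1 stays active and drives protein synthesis while restraining autophagy. In muscle fibers, sustained mTORC1 activity is known for a myopathy that appears late. A fiber that loses contact with its nerve re-expresses genes of the developing muscle, among them the fetal acetylcholine receptor subunit, so these genes serve as markers of functional denervation.

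Estimated counts summed to between 10988960 and 33945646 per library in 3mCON, 14682801 and 28404440 in 3mTSCmKO, 12234422 and 19535160 in 9mCON, and 15936309 and 20867776 in 9mTSCmKO. The spread between replicates was wider at 9 months, with a biological coefficient of variation of 24.5% in 9mCON and 27.8% in 9mTSCmKO against 14.8% and 17.4% at 3 months. Library inserts averaged 180 to 236 nt in 3mCON and 175 to 226 nt in 3mTSCmKO but 223 to 289 nt in 9mCON and 225 to 308 nt in 9mTSCmKO, so that age and insert size cannot be told apart within a genotype, while the interaction compares the genotypes within each age. The Y-linked gene Ddx3y averaged 195 CPM (counts scaled to a common library size by TMM) in 3mCON, 181 CPM in 3mTSCmKO, 162 CPM in 9mCON and 164 CPM in 9mTSCmKO. The libraries lying farthest from their groups were 9mTSCmKO replicates 1 and 3 and 9mCON replicates 1 and 2. The summed level of 8 fast muscle fiber markers, in TPM, a measure scaled by transcript length, was 148000 to 170000 in 3mCON and 137000 to 178000 in 3mTSCmKO. At 9 months the genotypes did not overlap, with 167000 to 185000 in 9mCON and 128000 to 142000 in 9mTSCmKO. Their part in the results was not tested. Each library is 1 labelled sample, and p-values measure the spread between these samples.

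Tsc1 itself was lower in TSCmKO at both ages. It was counted at 116, 132, 138, 126 and 86.5 CPM in 3mCON against 31.4, 31.96, 28.9, 27.5 and 31.3 CPM in 3mTSCmKO, and at 53.4, 63.4, 93.8, 91.3 and 126 CPM in 9mCON against 37.1, 28.7, 27.8, 29.9 and 25.4 CPM in 9mTSCmKO. No TSCmKO library overlapped a CON library of its age. The log2 fold change was -1.99 ± 0.18 (SE) at 3 months and -1.52 ± 0.18 at 9 months, and the interaction of 0.46 ± 0.25 did not pass the test (adjusted p = 0.376). The level left in TSCmKO was 30.2 ± 1.92 CPM (SD, n = 5) at 3 months and 29.8 ± 4.42 CPM at 9 months.

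More genes passed the genotype test at 9 months than at 3 months, by a margin that depended on the fit. The order was the reverse for genes whose genotypes did not overlap, 2651 at 3 months and 2151 at 9 months. Of 13261 genes tested, 4271 (32.2%) passed the test between genotypes at 9 months, 2303 of them higher in TSCmKO (17.4%) and 1968 lower (14.8%), against 2026 (15.3%) at 3 months, 1234 higher (9.31%) and 792 lower (5.97%). With 9mTSCmKO replicates 1 and 3 and 9mCON replicates 1 and 2 left out, the counts were 4232 at 9 months and 3745 at 3 months, and by limma voom with quality weights 4937 and 4500. The genotype-by-age interaction passed for 312 genes (2.35%), with 238 positive (1.79%) and 74 negative (0.558%), and 2070 genes had an unadjusted p under 0.05. Without the libraries of 9mTSCmKO, 52 of the 312 would not have met the filter of 1 CPM in 5 libraries, against 358 of the 13261 genes tested, and 29 of the 52 reached 1 CPM in no other library. Such a gene entered the test through 1 group, so its call is no independent sign of a difference. Genes were sorted by the size of their 2 effects. A larger effect at 9 months was found for 267 of the 312 genes (85.6%), with 211 higher and 56 lower in 9mTSCmKO, and the genotype effect at 3 months had not passed the test for 202 of them. For 97 of the 267 the estimates at the 2 ages had opposite signs. A smaller effect at 9 months was found for 34 genes, 16 of them higher and 18 lower in 3mTSCmKO, and 24 of the 34 had estimates of opposite sign. Another 11 genes had passed the test at both ages in opposite directions, 9 of them lower at 3 months and higher at 9 months. The median absolute effect in the larger class was 1.69 log2 units at 9 months and 0.40 at 3 months, and in the smaller class 0.38 at 9 months and 1.16 at 3 months. Among the 1475 genes that passed between genotypes at both ages, 1393 did not pass the interaction, all with the same sign at both ages, which does not show that their effects were equal. The number called moved between 190 without 9mTSCmKO replicate 4 and 476 without 9mCON replicate 1, and was 204 without 3mTSCmKO replicate 5, 196 without 9mCON replicate 4, 193 without 9mTSCmKO replicate 3 and 492 with 9mTSCmKO replicates 1 and 3 and 9mCON replicates 1 and 2 left out together. Positive calls were 76.3% of all calls with the 20 libraries, 68.5% to 81.6% in the fits without 1 library and 61% with those 4 left out. The smaller class held 13 genes without 9mTSCmKO replicate 4 and 67 without 3mTSCmKO replicate 4.

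**Figure D1:**
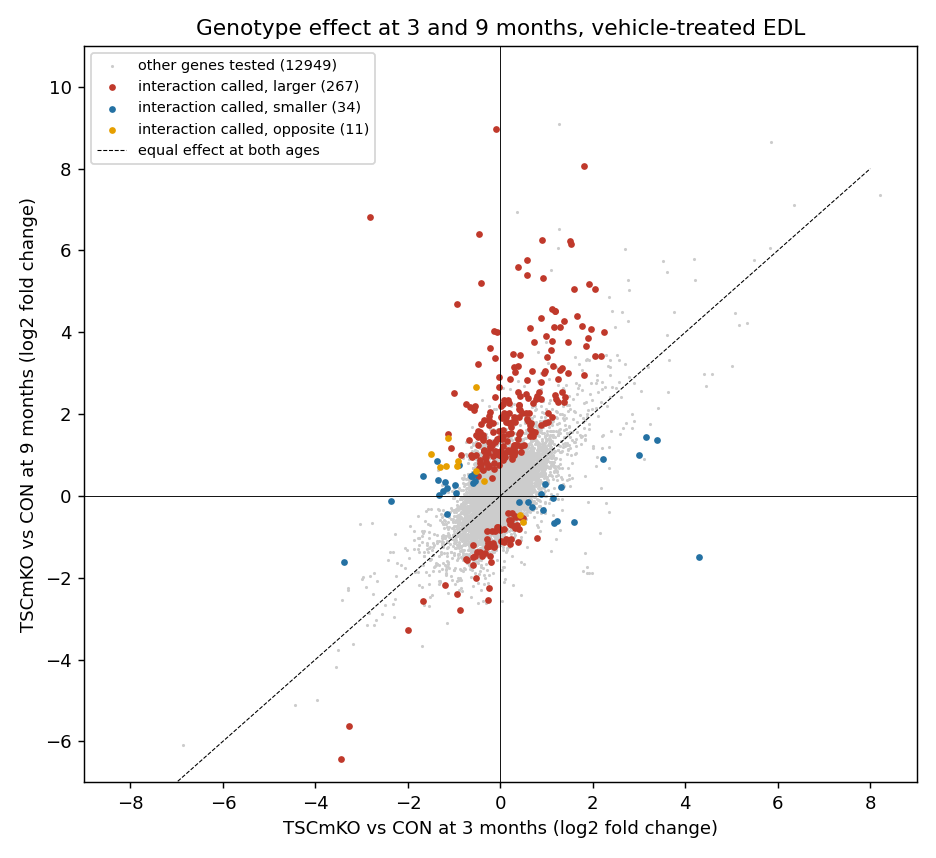
Log2 fold change of TSCmKO against CON at 3 months (horizontal) and 9 months (vertical) for each of the 13261 genes tested. Grey points are genes whose interaction was not called, red points the 267 genes with a larger effect at 9 months, blue points the 34 with a smaller effect and orange points the 11 with opposite effects, and most red points lie above the dashed line of equal effects near zero on the horizontal axis.

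Most interaction genes changed with age in TSCmKO and did not pass the age test in CON. Between 3 and 9 months, 4068 genes (30.7%) passed the test in TSCmKO and 39 (0.294%) in CON, where the count was 1 without 3mCON replicate 4 and 274 without 9mCON replicate 5. Of the 312 interaction genes, 301 passed the age test in TSCmKO and not in CON, 5 in CON and not in TSCmKO, 3 in both and 3 in neither. The estimated change with age was larger in TSCmKO than in CON for 295 of the 312. The age comparison within a genotype holds the difference in insert size. With insert size as a term the age effect in TSCmKO was called for 178 genes and the age effect in CON for 2, while the genotype-by-age interaction was called for 230.

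Genes of denervation and the neuromuscular junction had the largest share of calls among the 34 process lists examined. The list held 25 tested genes, and 10 of them (40%, against 2.35% of all genes) passed the interaction, all positive and all in the larger class. The median interaction over the 25 was 0.79 log2 units, the median genotype effect was -0.37 at 3 months and 0.50 at 9 months, and the median over all genes was 0.00. At 9 months 13 members were higher and 4 lower in TSCmKO by the test (17.4% and 14.8% of all genes), against 1 higher and 3 lower at 3 months (9.31% and 5.97% of all genes). In bulk muscle, a different number of cells of a type and a different amount of RNA per cell cannot be told apart.

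The muscle acetylcholine receptor is a pentamer in which the fetal subunit gamma, encoded by Chrng, gives way after birth to the adult subunit epsilon, encoded by Chrne. Chrng (chr1:87204657-87212694) was counted at 0.115, 0.187, 0.298, 0.0909 and 0.174 CPM in 3mCON, 0.135, 0.0680, 0, 0.0663 and 0.148 CPM in 3mTSCmKO and 0.184, 0, 0.165, 0.0555 and 0.212 CPM in 9mCON. In 9mTSCmKO it was counted at 4.91, 1.59, 7.31, 1.69 and 1.82 CPM. All 5 libraries of 9mTSCmKO lay above all 15 others, with replicates 1 and 3 highest, and no library of the other groups held more than 7 counts of the gene. The interaction was 5.64 ± 1.01 (SE, adjusted p = 0.00332), a value that rests on these low counts, and Chrng was the 1 called member of the list that passed the filter only through 9mTSCmKO.

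Chrnd, the delta subunit, was counted at 7.73, 4.95, 6.43, 6.73 and 8.08 CPM in 3mCON, 4.13, 4.28, 6.51, 4.67 and 5.88 CPM in 3mTSCmKO, 7.31, 6.40, 5.70, 5.16 and 6.64 CPM in 9mCON and 7.38, 10.7, 17.6, 9.04 and 7.89 CPM in 9mTSCmKO. The genotypes overlapped at 3 months and did not overlap at 9 months, where the lowest TSCmKO library, replicate 1, lay just above the highest CON library. Its interaction was 1.16 ± 0.30 (adjusted p = 0.0384). Chrna1, the alpha subunit that binds acetylcholine, was counted at 34.8, 34.4, 31.5, 39.2 and 37.3 CPM in 3mCON, 23.6, 22.1, 30.5, 23.3 and 27.5 CPM in 3mTSCmKO, 34.96, 45.1, 36.2, 36.2 and 36.1 CPM in 9mCON and 33.4, 50.04, 91.2, 46.02 and 45.3 CPM in 9mTSCmKO. Every 3mTSCmKO library lay below every 3mCON library, while at 9 months TSCmKO was higher with 1 library, replicate 1, below all 5 of 9mCON. Its genotype effect went from -0.48 ± 0.18 (adjusted p = 0.0783) to 0.50 ± 0.18 (adjusted p = 0.0394), an interaction of 0.98 ± 0.26 (adjusted p = 0.0438). Chrne was lower in TSCmKO at both ages, with log2 fold changes of -0.94 and -0.89 and adjusted p of 0.000688 and 0.000558, and its interaction was 0.05 ± 0.25 (adjusted p = 0.945). Chrnb1, the beta subunit, had an interaction of 0.24 ± 0.20 (adjusted p = 0.601).

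Promoters of receptor subunit genes are known for E-boxes, the sites of myogenic factors such as MyoD and myogenin, and for the N-box, a site of ETS factors at genes transcribed under the synapse. The promoters of 2 subunits with a called interaction and of the adult subunit without one are shown to set these letters side by side. They run 5′ to 3′ from 250 bases before to 50 after a RefSeq start on GRCm38.p6, and the capitals mark CAGCTG (an E-box, the same on both strands) and CCGGAA (an N-box core, searched on both strands).
Chrna1, chr2:73580289-73580588, minus strand: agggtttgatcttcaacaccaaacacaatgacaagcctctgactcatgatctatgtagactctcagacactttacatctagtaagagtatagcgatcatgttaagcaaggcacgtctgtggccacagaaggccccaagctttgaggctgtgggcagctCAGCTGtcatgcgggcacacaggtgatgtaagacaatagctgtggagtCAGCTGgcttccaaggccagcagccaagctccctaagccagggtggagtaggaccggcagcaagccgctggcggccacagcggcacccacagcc
Chrng, chr1:87205561-87205860, plus strand: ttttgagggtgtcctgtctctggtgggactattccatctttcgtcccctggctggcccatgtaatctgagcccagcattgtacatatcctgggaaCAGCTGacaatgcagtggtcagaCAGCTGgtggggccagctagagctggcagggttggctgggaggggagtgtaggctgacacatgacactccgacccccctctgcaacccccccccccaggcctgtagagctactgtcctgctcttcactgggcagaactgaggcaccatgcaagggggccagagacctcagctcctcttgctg
Chrne, chr11:70619145-70619444, minus strand: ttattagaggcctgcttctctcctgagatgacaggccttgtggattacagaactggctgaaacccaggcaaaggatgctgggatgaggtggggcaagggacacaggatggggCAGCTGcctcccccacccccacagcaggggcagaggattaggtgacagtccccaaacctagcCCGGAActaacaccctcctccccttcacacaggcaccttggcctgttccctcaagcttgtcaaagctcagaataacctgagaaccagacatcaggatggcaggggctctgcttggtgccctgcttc
Chrna1 and Chrng each held 2 CAGCTG and no CCGGAA, and Chrne held 1 of each. CAGCTG stood in 1519 of 10175 promoters of tested genes (14.9%) and in 49 of the 222 promoters matched for called genes (22.1%), and CCGGAA in 27.5% and 12.6%. Among the list's 18 matched promoters, 5 held CAGCTG, 3 of them (Chrna1, Chrng and Etv5) among the 6 whose gene was called. The Chrng window starts from a RefSeq start 1154 bases from the GENCODE gene start. A match describes the letters of these windows and is not evidence of binding.

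Adhesion genes of the list were called too. Ncam1, the neural cell adhesion molecule that spreads along denervated fibers, was counted at 14.6, 12.1, 14.8, 13.8 and 14.2 CPM in 3mCON, 7.24, 12.3, 12.1, 11.4 and 10.5 CPM in 3mTSCmKO, 21.3, 11.3, 14.2, 13.8 and 12.4 CPM in 9mCON and 47.4, 35.8, 41.1, 31.9 and 30.8 CPM in 9mTSCmKO. Its levels in 3mTSCmKO lay at or below those of 3mCON with overlap, and those of 9mTSCmKO lay above every other library. The interaction of 1.73 ± 0.24 (adjusted p = 0.000229) was the most significant of the list. Nrcam, a related adhesion molecule, went from at most 1.45 CPM in the other 15 libraries to 7.38, 4.83, 11.6, 6.32 and 4.74 CPM in 9mTSCmKO, an interaction of 2.93 ± 0.49 (adjusted p = 0.00176).

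Regulators and junction components made up the remaining calls. Runx1, a transcription factor induced by denervation, was counted at 3.04 to 6.0 CPM in 3mCON, 3.33 to 5.76 CPM in 3mTSCmKO and 1.94 to 4.78 CPM in 9mCON, and at 20.5, 15.05, 18.9, 13.6 and 11.9 CPM in 9mTSCmKO, with an interaction of 2.18 ± 0.33 (adjusted p = 0.00068). Prkar1a, a regulatory subunit of protein kinase A, averaged 185 ± 9.74 CPM (SD, n = 5), 169 ± 10.1 CPM, 155 ± 23.04 CPM and 244 ± 35.4 CPM in 3mCON, 3mTSCmKO, 9mCON and 9mTSCmKO, an interaction of 0.79 ± 0.17 (adjusted p = 0.012). Both genes separated the genotypes at 9 months and overlapped at 3 months. Colq, the collagen tail that anchors acetylcholinesterase in the synaptic cleft, averaged 12.2 ± 1.80, 10.03 ± 1.11, 10.04 ± 1.46 and 16.6 ± 4.75 CPM in the same order (interaction 0.99 ± 0.24, adjusted p = 0.0258). Etv5, an ETS transcription factor of the subsynaptic nuclei, averaged 19.7 ± 1.26, 21.2 ± 1.02, 16.1 ± 4.37 and 31.1 ± 6.33 CPM (interaction 0.84 ± 0.22, adjusted p = 0.0472).

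Of the 15 members without a call, several had estimates of similar size with wider errors. Myog, myogenin, was counted at 0.406 to 1.52 CPM in 3mTSCmKO and 1.78 to 5.79 CPM in 9mTSCmKO (interaction 1.84 ± 0.53, adjusted p = 0.0685), and Musk, the receptor kinase that organizes the postsynapse, had an interaction of 1.38 ± 0.45 (adjusted p = 0.116). Gadd45a, induced by denervation, was already higher in 3mTSCmKO, by 1.97 log2 units, and was higher by 2.76 in 9mTSCmKO (interaction 0.79 ± 0.38, adjusted p = 0.314). Lrp4, the agrin receptor, was lower in 3mTSCmKO by 0.75 log2 units (adjusted p = 0.00046), and its effect at 9 months was -0.17 (adjusted p = 0.352). Rapsn, which clusters the receptors, was lower in TSCmKO at both ages, with log2 fold changes of -0.45 at 3 months and -0.62 at 9 months, and its interaction of -0.16 did not pass.

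Ncam1, Nrcam, Runx1 and Prkar1a were called in all 20 fits without 1 library. Chrng was called in the 15 fits without a library of another group and fell below the filter in the 5 without a 9mTSCmKO library. The call of Colq was lost without 3mCON replicate 3 or 5, 9mCON replicate 3 or 4, or 9mTSCmKO replicate 3, with adjusted p up to 0.05502. Chrnd, Chrna1 and Etv5 stood near the threshold and lost the call in 14, 15 and 16 of the 20 fits, with adjusted p up to 0.0782 without 9mCON replicate 4, 0.0881 without 3mTSCmKO replicate 2 and 0.0955 without 9mCON replicate 4. The number of members called was then 6 in each fit without 3mCON replicate 3 or 5, 9mCON replicate 3 or 4, or 9mTSCmKO replicate 2, 3 or 4. With insert size as a term 7 members were called. The summed level of 8 Schwann cell markers, the glia of the nerve, was 104 to 257 TPM in 9mTSCmKO against 168 to 323 TPM in 9mCON, and 109 to 390 TPM in 3mTSCmKO against 161 to 363 TPM in 3mCON; none of the 8 was called.

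**Figure D2:**
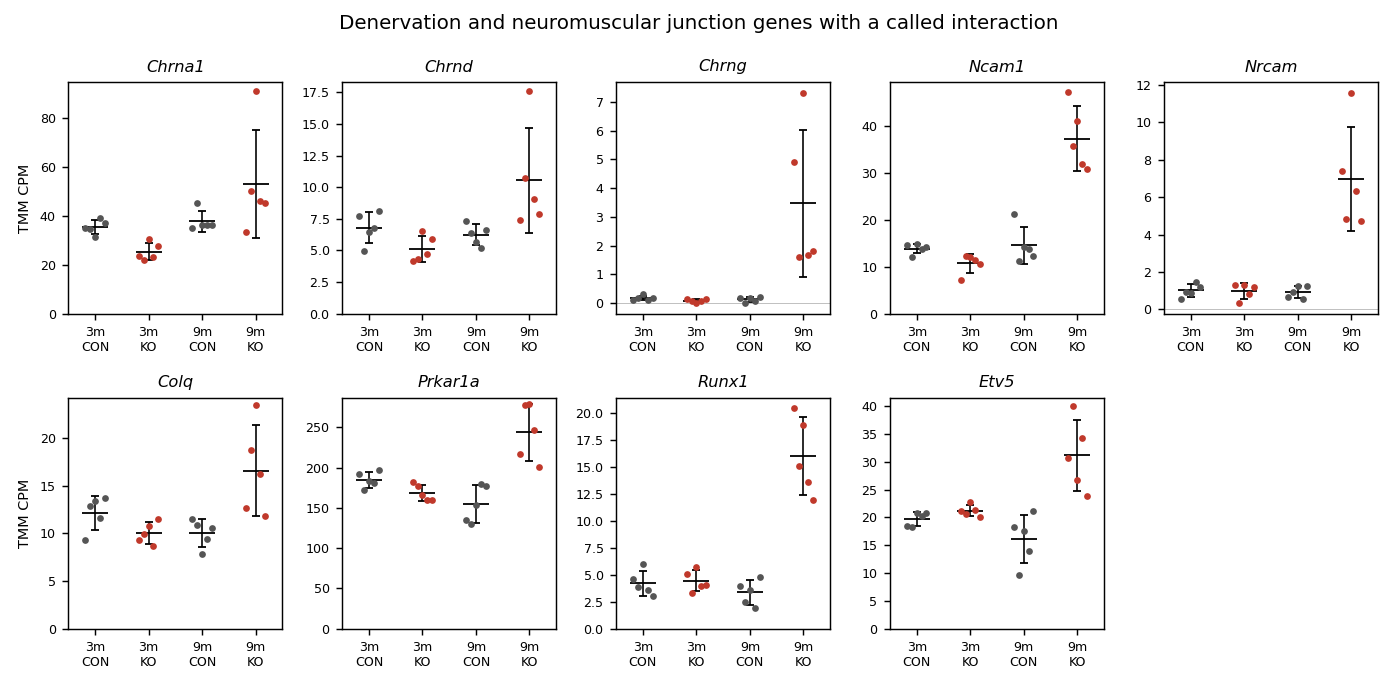
CPM of 9 denervation and neuromuscular junction genes with a called interaction. Each point is 1 library (grey CON, red TSCmKO), the horizontal mark is the group mean and the bar 1 SD (n = 5), with each vertical axis on its own linear scale that includes 0; in Chrng, Ncam1, Nrcam and Runx1 the 5 libraries of 9mTSCmKO lie above the other 15.

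Genes of slow, cardiac and developmental fibers had the highest median interaction of the lists. Of 21 tested, 6 were called (28.6%, against 2.35% of all genes), all positive and all in the larger class. The median genotype effect of the list was 0.53 log2 units at 3 months and 1.92 at 9 months. At 9 months 15 members were higher and 2 lower in TSCmKO, against 17.4% and 14.8% of all genes. At 3 months 5 were higher and none lower, against 9.31% and 5.97%. Ankrd1, a strain-responsive titin-binding repressor, was counted at 35.6, 23.3, 20.6, 27.5 and 38.7 CPM in 3mCON, 99.02, 82.3, 66.5, 28.2 and 51.9 CPM in 3mTSCmKO, 24.9, 36.3, 29.5, 32.7 and 25.5 CPM in 9mCON and 387, 547, 769, 651 and 251 CPM in 9mTSCmKO. It was higher in TSCmKO at both ages, with 3mTSCmKO replicate 4 inside the range of 3mCON and no overlap at 9 months, and its interaction was 2.96 ± 0.42 (adjusted p = 0.000456). Casq2, the calsequestrin of slow and cardiac muscle that stores calcium in the sarcoplasmic reticulum, averaged 30.1 ± 3.17, 34.4 ± 8.05, 25.02 ± 3.47 and 86.05 ± 22.7 CPM (SD, n = 5) in 3mCON, 3mTSCmKO, 9mCON and 9mTSCmKO (interaction 1.59 ± 0.25, adjusted p = 0.00102).

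Myl2, the slow regulatory myosin light chain, was counted at 14.4, 23.1, 106, 27.2 and 9.46 CPM in 3mCON, 156, 106, 150.4, 245 and 93.2 CPM in 3mTSCmKO, 17.3, 17.6, 15.3, 16.2 and 21.4 CPM in 9mCON and 587, 512, 745, 762 and 338 CPM in 9mTSCmKO. The genotypes did not overlap at 9 months and overlapped at 3 months through 3mCON replicate 3 (interaction 3.02, adjusted p = 0.0185). Atp2a2, the slow calcium pump of the sarcoplasmic reticulum, was counted at 50.1 to 150.1 CPM in 3mCON, 137 to 510.2 CPM in 3mTSCmKO, 30.4 to 62.6 CPM in 9mCON and 450.3 to 1172 CPM in 9mTSCmKO (interaction 2.13, adjusted p = 0.0216). From 3 to 9 months the log2 change was 1.97 for Myl2 and 1.21 for Atp2a2 in TSCmKO, both past the test, and -1.05 and -0.92 in CON, where neither passed. Myoz2, a Z-disc protein of slow fibers, and Myl6b, a myosin light chain, had interactions of 1.83 (adjusted p = 0.0108) and 1.20 (adjusted p = 0.037). Their log2 genotype effects at 3 months, 0.11 and 0.14, did not pass the test.

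Several other slow isoforms also varied between libraries and were not called. Myh7, the slow myosin heavy chain, was counted at 77.4, 54.5, 126, 78.9 and 30.3 CPM in 3mCON, 172, 38.4, 177, 189 and 75.8 CPM in 3mTSCmKO, 18.5, 19.1, 35.1, 40.5 and 69.3 CPM in 9mCON and 164, 269, 264, 479 and 114 CPM in 9mTSCmKO. The genotypes overlapped at 3 months, with 3mCON replicate 3 high and 3mTSCmKO replicate 2 low, and did not overlap at 9 months, yet the interaction of 1.99 ± 0.68 did not pass (adjusted p = 0.142). Tnni1, Tnnt1 and Tnnc1, the slow troponins, had estimates of 2.77, 2.14 and 2.70 with adjusted p of 0.0826, 0.147 and 0.156. Actc1, the cardiac actin of developing muscle, had the opposite sign, with 125 to 1026 CPM in 3mTSCmKO against 30.6 to 136 CPM in 3mCON and an interaction of -2.20 (adjusted p = 0.0988). With 9mTSCmKO replicates 1 and 3 and 9mCON replicates 1 and 2 left out, 3 members were called in place of 6, and without any 1 library 5 to 7 were.

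Fast fiber isoforms ran the other way without a call. None of 17 was called, against 2.35% of all genes, and 16 of the 17 estimates were negative with a median of -0.43. An unadjusted p under 0.05 was found for 5 of them, against 2070 of all 13261 genes. At 9 months 8 were lower in TSCmKO by the test and none higher, against 14.8% and 17.4% of all genes. At 3 months none passed in either direction, against 5.97% lower and 9.31% higher. Casq1, the fast calsequestrin, was lower at 9 months, at -1.12 on the log2 scale (adjusted p = 8.77e-06). Its effect in 3mTSCmKO was -0.38 (adjusted p = 0.106) and the interaction was -0.74 ± 0.22 (adjusted p = 0.0783).

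Calcium handling and strain genes shared members with the slow list. Of 20 calcium release and buffering genes, 3 were called (15%, against 2.35% of all genes), Casq2, Atp2a2 and Sln, and 5 with upper-quartile scaling. These 3 were positive, while 13 of the 20 estimates were negative, with a median of -0.23. At 9 months 10 members were lower in TSCmKO and 5 higher by the test, against 14.8% and 17.4% of all genes. Sln encodes sarcolipin, a small inhibitor of the calcium pump, and was counted at 0.933 to 1.52 CPM in 3mCON, 0.663 to 1.59 CPM in 3mTSCmKO and 1.17 to 2.27 CPM in 9mCON. In 9mTSCmKO it was counted at 24.1, 18.4, 47.0, 24.5 and 12.4 CPM, every library above all others (interaction 4.18 ± 0.46, adjusted p = 2.2e-05). Of 20 intermediate filament and Z-disc strain genes, 4 were called (20%): Ankrd1, Krt18, Nes and Cryab. Krt18, a simple keratin that adult fibers barely express, was counted at 0.0606 to 0.492 CPM in both CON groups, 0.365 to 0.609 CPM in 3mTSCmKO and 18.6, 20.6, 38.2, 12.2 and 13.1 CPM in 9mTSCmKO (interaction 4.72 ± 0.78, adjusted p = 0.00175), and it too passed the filter only through 9mTSCmKO. Nes, nestin, was counted at 50.9 to 89.4 CPM in 3mTSCmKO and 145 to 323 CPM in 9mTSCmKO, against 47.9 to 61.1 CPM in 3mCON and 50.6 to 80.4 CPM in 9mCON. Its interaction was 1.49 (adjusted p = 0.00245). Cryab, a small heat shock protein of the Z-disc, was counted at 347 to 599 CPM in 3mTSCmKO against 494 to 565 CPM in 3mCON, with overlap, and at 994 to 2274 CPM in 9mTSCmKO against 530.4 to 884 CPM in 9mCON, with none (interaction 1.31 ± 0.28, adjusted p = 0.0127).

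The largest interactions among genes of sufficient level belonged to genes barely counted outside 9mTSCmKO. Map7d2, a microtubule-associated protein that recruits kinesin, was counted at 0.373 to 0.638 CPM in 3mCON, 0.204 to 1.13 CPM in 3mTSCmKO and 0.500 to 1.29 CPM in 9mCON, and at 50.6, 29.9, 52.5, 38.1 and 24.5 CPM in 9mTSCmKO (interaction 5.23 ± 0.49, adjusted p = 1.63e-06). Uchl1, a ubiquitin hydrolase abundant in neurons, was counted at 1.73 to 6.63 CPM in the other 15 libraries and at 140.2, 76.5, 293, 94.2 and 102 CPM in 9mTSCmKO (interaction 5.19 ± 0.54, adjusted p = 1.95e-05). Adh7, a retinol-oxidizing alcohol dehydrogenase, was counted at 0.148 to 1.003 CPM in the other 15 and at 21.2, 13.8, 55.9, 19.4 and 11.3 CPM in 9mTSCmKO (interaction 5.62 ± 0.75, adjusted p = 0.000229). In all of these, 9mTSCmKO replicate 3 was the highest library and no library of 9mTSCmKO overlapped the groups at 3 months. The rule that chose them required no overlap with 9mCON. Map7d2, with 2 other libraries at 1 CPM, and Adh7, with 1, passed the filter only through 9mTSCmKO. Glra3, a glycine receptor subunit, held at most 3 counts in any 3mCON library, 1 in any 9mCON library and 11 in any 3mTSCmKO library, against 51 to 122 counts in 9mTSCmKO, where it was counted at 2.75, 7.16, 4.74, 5.84 and 5.56 CPM. Its fitted interaction of 6.25 ± 1.55 (adjusted p = 0.0329) depends on the prior count. The gene passed the filter only through 9mTSCmKO, and of the 15 fits without 1 library that kept the gene, 5 lost the call, that without 3mCON replicate 1 with an adjusted p of 0.3605, and those without 3mCON replicate 4, 3mTSCmKO replicate 5 or 9mCON replicate 3 or 4.

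Stress and antioxidant genes were called in part. Of 18 heat shock genes 3 were called (16.7%, against 2.35% of all genes), Hspb1, Bag3 and Cryab, all positive, and with insert size as a term 1 was. Hspb1, a small chaperone, was counted at 59.2 to 89.01 CPM in 3mCON, 134 to 164 CPM in 3mTSCmKO, 75.1 to 113 CPM in 9mCON and 262 to 632 CPM in 9mTSCmKO, so the genotypes were apart at both ages. Bag3, a cochaperone of selective autophagy at the Z-disc, averaged 150.3 ± 18.1, 245 ± 16.3, 150.0 ± 27.05 and 413 ± 61.7 CPM in 3mCON, 3mTSCmKO, 9mCON and 9mTSCmKO (interaction 0.76 ± 0.19, adjusted p = 0.0324). Of 23 targets of the oxidant sensor NRF2, 3 were called (13%), Nqo1, Txn1 and Pgd, and 1 with insert size as a term. Txn1, thioredoxin, averaged 26.5 ± 2.08, 29.5 ± 6.94, 31.7 ± 3.85 and 90.6 ± 26.4 CPM in the same order (interaction 1.36 ± 0.24, adjusted p = 0.00266), with no overlap at 9 months. Pgd, of the pentose phosphate pathway, averaged 13.8 ± 1.84, 17.7 ± 2.24, 14.7 ± 0.844 and 35.2 ± 11.6 CPM (interaction 0.89 ± 0.23, adjusted p = 0.0375). Bag3 was no longer called in 8 of 20 leave-one-out fits, where the adjusted p was up to 0.0795 without 3mCON replicate 5, and Pgd in 11, up to 0.0791 without 3mTSCmKO replicate 3. Mt3, a metallothionein of brain, was counted at 0.261 to 2.59 CPM outside 9mTSCmKO and at 8.62 to 19.7 CPM in it (interaction 2.91 ± 0.50, adjusted p = 0.00232), the only call of 14 metallothionein and zinc transporter genes (7.14%).

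Targets of ATF4, the transcription factor of the integrated stress response, were higher at both ages in many cases. Of 30 targets, 15 were higher in 3mTSCmKO, against 9.31% of all genes, and 18 in 9mTSCmKO, against 17.4%. The interaction was called for 1 of the 30 (3.33%, near the 2.35% of all genes), Psat1, an enzyme of serine synthesis. Psat1 averaged 1.97 ± 0.519, 4.29 ± 1.85, 1.45 ± 0.378 and 13.1 ± 3.64 CPM in 3mCON, 3mTSCmKO, 9mCON and 9mTSCmKO (interaction 2.04 ± 0.38, adjusted p = 0.00462). The other 29 members, which include genes of amino acid synthesis and transport, did not pass the interaction. Of the 30, however, 12 had an unadjusted p under 0.05, against 2070 of all 13261 genes. Of 20 p53 and growth arrest genes, 10 were higher at 3 months and 12 at 9 months, against the same 9.31% and 17.4%. The interaction was called for 1 of the 20 (5%, against 2.35%), Pmaip1, a BH3-only death factor. Pmaip1 was counted at 2.10 to 5.61 CPM in 9mTSCmKO and at most 0.722 CPM elsewhere (interaction 3.19 ± 0.80, adjusted p = 0.0353), passed the filter only through 9mTSCmKO, and lost the call in 9 of the 15 fits without 1 library that kept it, with an adjusted p up to 0.0926 without 3mCON replicate 3.

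Few genes of fuel use were called. Of 30 glycolysis and glycogen genes 2 were called (6.67%, against 2.35% of all genes), both positive, and the median interaction was -0.06. Of the 30, 11 were lower in 9mTSCmKO and 4 higher by the test, against 14.8% and 17.4% of all genes. Hk1, the hexokinase isoform typical of non-muscle tissue, was counted at 9.15 to 16.8 CPM in 3mCON, 12.7 to 13.8 CPM in 3mTSCmKO and 9.64 to 15.98 CPM in 9mCON, and at 50.3, 36.1, 53.01, 27.6 and 21.97 CPM in 9mTSCmKO (interaction 1.55 ± 0.29, adjusted p = 0.00418). Slc2a1, the glucose transporter GLUT1, was higher in TSCmKO at both ages without overlap, at 14.9 to 21.98 CPM against 8.59 to 12.8 CPM at 3 months and 31.7 to 49.1 CPM against 10.6 to 15.8 CPM at 9 months (interaction 0.81 ± 0.21, adjusted p = 0.039). Pdk3, a kinase that closes pyruvate dehydrogenase, was likewise higher at both ages, with 4.28 ± 1.25 CPM against 1.54 ± 0.17 CPM at 3 months and 12.6 ± 3.72 CPM against 0.93 ± 0.42 CPM at 9 months (interaction 2.28 ± 0.40, adjusted p = 0.00245), and was the only call of 25 pyruvate and tricarboxylic acid cycle genes (4%). Atp6v1h, a subunit of the lysosomal proton pump, averaged 20.9 ± 2.41, 25.8 ± 6.22, 22.2 ± 3.31 and 52.6 ± 13.96 CPM (interaction 0.94 ± 0.25, adjusted p = 0.0411) and was the only call among 38 autophagy and lysosome genes (2.63%, near the 2.35% of all genes). Of the 38, 14 were higher in 3mTSCmKO and 16 in 9mTSCmKO, against 9.31% and 17.4% of all genes. Slc2a1 and Atp6v1h lost the call in 12 and 15 of the 20 leave-one-out fits, with adjusted p up to 0.0868 without 3mCON replicate 3 and 0.0933 without 3mCON replicate 5. Lgals3, galectin-3, was the only call of 23 macrophage and antigen presentation genes (4.35%), with 13.1 to 27.7 CPM in 9mTSCmKO against 3.61 to 6.64 CPM in 9mCON and overlapping levels at 3 months (interaction 1.72 ± 0.36, adjusted p = 0.012). The summed level of 8 macrophage markers was 31.9 to 64.7 TPM in 9mTSCmKO and 27.5 to 92.3 TPM in 9mCON, and none of the 8 was called.

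Of 31 genes of the mTORC1 pathway and insulin signalling 2 were called (6.45%, against 2.35% of all genes), Igf2 positive and Irs2 negative, and the median was -0.12. Igf2, a fetal growth factor, was counted at 36.3, 31.9, 32.6, 26.4 and 35.95 CPM in 3mCON, 24.2, 28.7, 23.3, 17.3 and 26.3 CPM in 3mTSCmKO, 32.8, 15.7, 25.8, 26.9 and 26.7 CPM in 9mCON and 53.8, 43.1, 55.9, 43.97 and 39.98 CPM in 9mTSCmKO. The genotypes overlapped at 3 months, where TSCmKO was lower by an estimate of -0.45 (adjusted p = 0.067), and did not overlap at 9 months, where it was higher by 0.89 (adjusted p = 0.000234), and the interaction was 1.33 ± 0.23 (adjusted p = 0.00245). Mstn, myostatin, the inhibitor of muscle growth, was counted at 54.2, 66.4, 85.8, 52.5 and 48.6 CPM in 3mCON, 61.3, 81.7, 51.1, 60.8 and 55.02 CPM in 3mTSCmKO, 50.6, 69.5, 65.1, 78.6 and 71.9 CPM in 9mCON and 28.1, 31.2, 23.6, 28.7 and 43.4 CPM in 9mTSCmKO. The genotypes were mixed at 3 months and apart at 9 months, with an interaction of -1.12 ± 0.25 (adjusted p = 0.015). Mstn was the only call of 19 atrophy ligases and regulators, 5.26% of the list against 2.35% of all genes. In that list 8 genes were higher in TSCmKO at 3 months and 6 at 9 months, against 9.31% and 17.4% of all genes.

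In the activin, myostatin and BMP list 3 of 32 genes were called (9.38%, against 2.35% of all genes). Beside Mstn these were Bmp1, the protease that activates latent myostatin and processes procollagen, with 9.16 to 12.9 CPM in 9mTSCmKO against 18.8 to 33.1 CPM in 9mCON (interaction -0.89 ± 0.20, adjusted p = 0.0173), and Tgfb3, a member of the same ligand superfamily, with an interaction of 0.64 ± 0.16 (adjusted p = 0.039). Irs2, an adaptor of the insulin receptor, averaged 41.4 ± 8.97, 37.7 ± 6.29, 48.6 ± 13.5 and 20.4 ± 5.07 CPM in 3mCON, 3mTSCmKO, 9mCON and 9mTSCmKO, with 9mCON replicate 1, at 25.3 CPM, inside the range of 9mTSCmKO (interaction -1.12 ± 0.28, adjusted p = 0.0362). Amd1, which makes the aminopropyl donor of polyamines, averaged 651 ± 286, 842 ± 171, 847 ± 295 and 390.1 ± 151 CPM with overlap at both ages (interaction -1.49 ± 0.40, adjusted p = 0.0493). Irs2 was no longer called in 12 of 20 leave-one-out fits, where the adjusted p was up to 0.0774 without 3mTSCmKO replicate 2, and Amd1 in 17, up to 0.1005 without 9mTSCmKO replicate 4. Rrm2, a ribonucleotide reductase subunit, was counted at 3.31 to 6.85 CPM in 9mTSCmKO, 0.369 to 0.660 CPM in 9mCON and 0.521 to 2.12 CPM at 3 months (interaction 3.00 ± 0.48, adjusted p = 0.00125). It would not have met the filter without 9mTSCmKO.

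Among the 56 genes lower in 9mTSCmKO with a larger effect, Dkk3 had the largest interaction of sufficient level. Dkk3, a secreted protein of the Dickkopf family, was counted at 117, 130.5, 54.9, 118 and 114 CPM in 3mCON, 11.7, 12.6, 8.94, 3.68 and 12.6 CPM in 3mTSCmKO, 372, 339, 412, 386 and 359.6 CPM in 9mCON and 3.88, 3.85, 5.38, 3.19 and 5.15 CPM in 9mTSCmKO. It was lower in TSCmKO at both ages without overlap, by 3.44 log2 units at 3 months and 6.44 at 9 months, and the interaction was -3.00 ± 0.36 (adjusted p = 6.81e-05). Unlike most, it moved in CON too, higher at 9 months by 1.81 (adjusted p = 0.00324), while in TSCmKO it fell by 1.19 (adjusted p = 0.00255). Fgfbp1, a carrier of fibroblast growth factors known to be made by fibers and to stabilize the neuromuscular junction, was counted at 3.55 to 8.09 CPM in 3mCON, 0.204 to 0.846 CPM in 3mTSCmKO, 5.63 to 9.99 CPM in 9mCON and 0 to 0.365 CPM in 9mTSCmKO. It too was lower at both ages without overlap (interaction -2.36 ± 0.60, adjusted p = 0.0382), and lost the interaction call in 12 of the 20 leave-one-out fits, with adjusted p up to 0.0958 without 3mTSCmKO replicate 5. Ces1d, a lipid hydrolase of adipocytes and liver, and Thy1, a surface protein of fibroblasts and neurons, were apart at 9 months only. Ces1d had 0.755 to 5.03 CPM in 9mTSCmKO against 9.71 to 26.7 CPM in 9mCON (interaction -2.27 ± 0.49, adjusted p = 0.0141), and Thy1 had 1.26 to 3.57 CPM against 9.39 to 11.9 CPM (interaction -1.9996 ± 0.37, adjusted p = 0.00373). Clcn1, the chloride channel that steadies the resting fiber membrane, was counted at 227 to 303 CPM in 3mCON, 183 to 294 CPM in 3mTSCmKO, 224 to 278 CPM in 9mCON and 142, 143, 130.1, 137 and 155 CPM in 9mTSCmKO (interaction -0.74 ± 0.17, adjusted p = 0.0202).

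Markers of connective tissue were also lower in 9mTSCmKO. The summed level of 8 fibroblast and fibro-adipogenic markers was 391 to 801 TPM in 9mTSCmKO, 904 to 2050 TPM in 9mCON, 946 to 1720 TPM in 3mTSCmKO and 1120 to 2330 TPM in 3mCON. All 8 markers were detected, and 1 of them, Dpt, was called (12.5%, against 2.35% of all genes). All 8 estimates were negative, with a median of -0.58. By the test 5 were lower in TSCmKO at 9 months and none at 3 months, against 14.8% and 5.97% of all genes. The summed level of 8 tendon markers had a median of 62.8 TPM in 9mTSCmKO, 79.7 TPM in 9mCON, 249 TPM in 3mTSCmKO and 454 TPM in 3mCON. The genotypes overlapped at both ages. Of these 8, 5 were lower in TSCmKO at 9 months and 1 at 3 months, against the same shares, none was called, and the median interaction was -1.03. The sum of 8 adipocyte markers was 2240 to 5640 TPM in 9mTSCmKO and 1010 to 1890 TPM in 9mCON, against 2410 to 6770 TPM and 1070 to 4610 TPM at 3 months. Car3, a carbonic anhydrase that muscle fibers also express, made up most of the sum in TSCmKO, and without it, a sum chosen after seeing the values, the other 7 markers came to 426 to 1290 TPM in 9mTSCmKO and 399 to 991 TPM in 9mCON. At 9 months 2 of the 8 were lower in TSCmKO by the test and Car3 was higher, 6 of the 8 interactions were negative and none was called. Markers of red cells summed to 822 to 3360 TPM in 9mTSCmKO, 1070 to 21200 TPM in 9mCON, 1380 to 28800 TPM in 3mTSCmKO and 653 to 4050 TPM in 3mCON, with a median interaction of -3.70 over the 6 tested and no call. The part of these cells in the results for Thy1, Ces1d and Bmp1 was not tested.

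A smaller genotype effect at 9 months was found for the 16 genes higher in 3mTSCmKO and the 18 lower in it. Htra4, a secreted serine protease, was counted at 104, 215, 114, 26.6 and 95.4 CPM in 3mTSCmKO against 5.60 to 14.7 CPM in 3mCON, and at 37.4, 26.6, 47.04, 26.6 and 28.04 CPM in 9mTSCmKO against 9.41 to 16.9 CPM in 9mCON. The genotypes stayed apart at both ages, with 3mTSCmKO replicate 4 as low as the 9mTSCmKO libraries, and the interaction was -2.02 ± 0.52 (adjusted p = 0.0436). Tpx2, a spindle assembly factor, was counted at 62.02, 62.8, 50.3, 25.3 and 41.3 CPM in 3mTSCmKO against 5.13 to 7.66 CPM in 3mCON, and at 28.03, 11.9, 15.7, 16.9 and 32.8 CPM in 9mTSCmKO against 7.17 to 13.1 CPM in 9mCON. It overlapped at 9 months by 1 library, and its interaction was -1.99 ± 0.37 (adjusted p = 0.00458). Of 15 tested genes of proliferation and mitosis, Tpx2 and Rrm2 were called (13.3%, against 2.35% of all genes), in opposite directions. Rian, a non-coding RNA of an imprinted gene cluster, averaged 38.7 ± 10.9, 341 ± 188, 47.6 ± 8.82 and 129 ± 58.1 CPM (interaction -1.70 ± 0.43, adjusted p = 0.039). Casr, the calcium-sensing receptor, averaged 14.6 ± 3.85, 68.01 ± 16.3, 15.7 ± 4.65 and 29.3 ± 10.4 CPM (interaction -1.34 ± 0.34, adjusted p = 0.0399). Tpx2 was called in all 20 fits without 1 library. Htra4, Rian and Casr lost the call in 16, 13 and 12 of them, with adjusted p up to 0.0874 and 0.0826 without 9mTSCmKO replicate 4 and 0.0851 without 3mTSCmKO replicate 5.

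Genes lower in 3mTSCmKO and closer to CON at 9 months included several on chromosome X. Pak1, a kinase of the actin cytoskeleton, was counted at 52.4, 47.97, 52.04, 45.3 and 58.2 CPM in 3mCON, 3.52, 4.96, 3.91, 7.03 and 4.77 CPM in 3mTSCmKO, 63.2, 60.4, 59.5, 37.9 and 45.2 CPM in 9mCON and 11.6, 21.5, 25.5, 13.1 and 15.7 CPM in 9mTSCmKO. It was lower at both ages without overlap, by 3.38 and 1.61 log2 units, with an interaction of 1.78 ± 0.29 (adjusted p = 0.00139). Tceal5, of a family of transcription elongation factor-like proteins, was counted at 9.39 to 13.96 CPM in 3mCON, 4.18 to 5.73 CPM in 3mTSCmKO, 13.3 to 25.3 CPM in 9mCON and 14.5 to 31.4 CPM in 9mTSCmKO, so that the genotypes were apart at 3 months and overlapped at 9 months (interaction 1.37 ± 0.29, adjusted p = 0.012). Tceal3 had the same form, with 1.56 to 2.33 CPM against 3.61 to 5.83 CPM at 3 months and overlap at 9 months (interaction 1.53 ± 0.37, adjusted p = 0.0257). Near-identical relatives limit both, since 28.1% of the 31-base words of Tceal5 transcripts and 17% of those of Tceal3 also occur in other genes, mostly Tceal6. Of the 18 genes of this kind, 8 (44.4%) lie on chromosome X, which carries 3.21% of the genes tested, Tceal3, Tceal5, Tceal6 and Bex1 among them, a count noticed after the values were seen. Prkcz, an atypical protein kinase C, averaged 4.87 ± 1.32, 1.93 ± 0.268, 6.69 ± 2.43 and 6.81 ± 1.61 CPM (interaction 1.36 ± 0.34, adjusted p = 0.0328). Pak1 and Tceal5 were called in all 20 fits without 1 library. Tceal3 lost the call without 3mCON replicate 1, 3mTSCmKO replicate 2, 9mCON replicate 4 or 9mTSCmKO replicate 3, with an adjusted p up to 0.0586, and Prkcz in 11 fits, up to 0.0716 without 9mTSCmKO replicate 4.

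Effects that passed the test in opposite directions at the 2 ages were measured for 11 genes. Map1b, a microtubule-associated protein of growing axons, was counted at 28.6, 24.1, 29.3, 21.4 and 25.01 CPM in 3mCON, 13.2, 16.1, 17.2, 23.2 and 18.6 CPM in 3mTSCmKO, 36.3, 19.4, 24.4, 28.4 and 31.8 CPM in 9mCON and 204, 204, 173, 198 and 114 CPM in 9mTSCmKO. The genotypes overlapped at 3 months through 3mTSCmKO replicate 4, and all 9mTSCmKO libraries lay above all others. Its effects were -0.53 ± 0.18 (adjusted p = 0.0442) and 2.67 ± 0.18 (adjusted p = 5.22e-10), and its interaction of 3.20 ± 0.25 had the lowest p of all genes (adjusted p = 1.49e-07). Stbd1, which tethers glycogen to membranes, was counted at 43.6, 39.9, 27.02, 31.3 and 38.3 CPM in 3mCON, 12.7, 22.7, 15.02, 14.1 and 15.4 CPM in 3mTSCmKO, 33.98, 41.03, 35.2, 35.04 and 33.4 CPM in 9mCON and 48.5, 55.97, 69.7, 54.3 and 68.3 CPM in 9mTSCmKO. The genotypes did not overlap at either age, with TSCmKO below CON at 3 months and above it at 9 months (interaction 1.91 ± 0.22, adjusted p = 2.61e-05). Myom3, an M-band protein of the sarcomere, averaged 26.9 ± 8.29, 9.47 ± 4.18, 24.1 ± 4.04 and 48.97 ± 16.8 CPM, with 9mTSCmKO replicate 5 inside the range of 9mCON (interaction 2.52 ± 0.38, adjusted p = 0.000827). Sh2d4a, an adaptor protein, averaged 4.95 ± 1.34, 2.62 ± 0.582, 4.21 ± 1.25 and 7.63 ± 1.61 CPM (interaction 1.77 ± 0.32, adjusted p = 0.00335). Only Cc2d2a, a protein of the ciliary transition zone, and Gpcpd1, a phosphodiesterase of phospholipid turnover, went from higher to lower. Cc2d2a averaged 22.1 ± 3.08, 29.6 ± 6.09, 20.9 ± 0.974 and 15.2 ± 2.22 CPM, with effects of 0.42 (adjusted p = 0.0458) and -0.46 (adjusted p = 0.0179) and an interaction of -0.88 (adjusted p = 0.0202). The number of genes in this class was 6 to 18 in the fits without 1 library, 6 without 3mCON replicate 5, 7 without 3mCON replicate 3 or 4 or 9mCON replicate 4, 17 without 9mTSCmKO replicate 1 and 18 without 9mCON replicate 2.

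**Figure D3:**
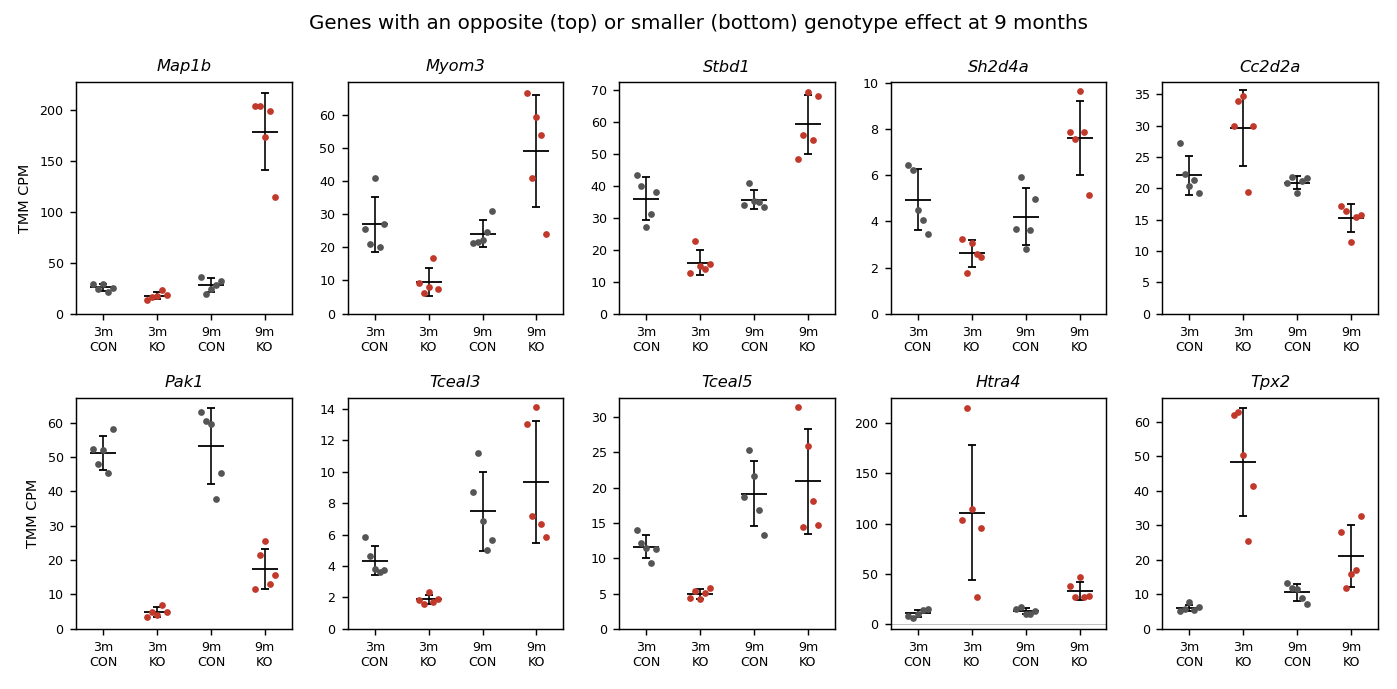
CPM of 5 genes with opposite genotype effects at 3 and 9 months (top row) and 5 with a smaller effect at 9 months (bottom row). Each point is 1 library (grey CON, red TSCmKO), the horizontal mark is the group mean and the bar 1 SD (n = 5), on a linear axis that includes 0 for each gene; Stbd1 lies below CON at 3 months and above it at 9 months without overlap at either age.

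Several gene groups that Tsc1 loss is known for gave no call. Of all 13261 genes 2.35% were called and 2070 had an unadjusted p under 0.05. In lists of 20 to 79 members that share called is few genes, so no call does not set these lists apart. None of 36 complex I subunits, 42 subunits of complexes II to V or 28 genes of fatty acid uptake and oxidation was called, and none of their members had an unadjusted interaction p under 0.05. Translation factors (0 of 42 called, 3 at unadjusted p under 0.05), aminoacyl-tRNA synthetases (0 of 20, with 2) and cytosolic ribosomal proteins (0 of 79, with 2) gave no call either. Proteasome subunits gave 0 of 37 with 5 at unadjusted p under 0.05, and 19 of them were higher in 9mTSCmKO against 4 in 3mTSCmKO (17.4% and 9.31% of all genes). No member passed the interaction. Chaperones of the endoplasmic reticulum gave 0 of 20 with none at unadjusted p under 0.05, interferon and MHC class I genes 0 of 23 with 3, sterol synthesis 0 of 23 with 4, laminins, integrins and the dystrophin complex 0 of 27 with 5, and amino acid transporters 0 of 23 with 8.

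Collagens and matrix genes had the lowest median of the 34 process lists. None of 35 was called, against 2.35% of all genes, and 12 had an unadjusted p under 0.05, against 2070 of all 13261 genes. Of the 35 estimates 31 were negative, and the median was -0.58. At 9 months 18 were lower in TSCmKO and 2 higher, against 14.8% and 17.4% of all genes. At 3 months none was lower and 1 was higher, against 5.97% and 9.31%. Col15a1 and Col6a2 had interactions of -1.21 (adjusted p = 0.0716) and -1.17 (adjusted p = 0.0685). The fibroblast and tendon marker sums were lowest, by their medians, in 9mTSCmKO, as given for the markers of connective tissue, and their part in the matrix values was not tested. All 19 tested circadian clock genes had a negative estimate, with a median of -0.38, none was called and 6 had an unadjusted p under 0.05. The lowest was Hlf, a clock output factor, lower at 9 months in TSCmKO, at -1.98 on the log2 scale (adjusted p = 9.49e-06). Its effect in 3mTSCmKO was -0.63 (adjusted p = 0.108) and the interaction was -1.34 (adjusted p = 0.0606).

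**Figure D4:**
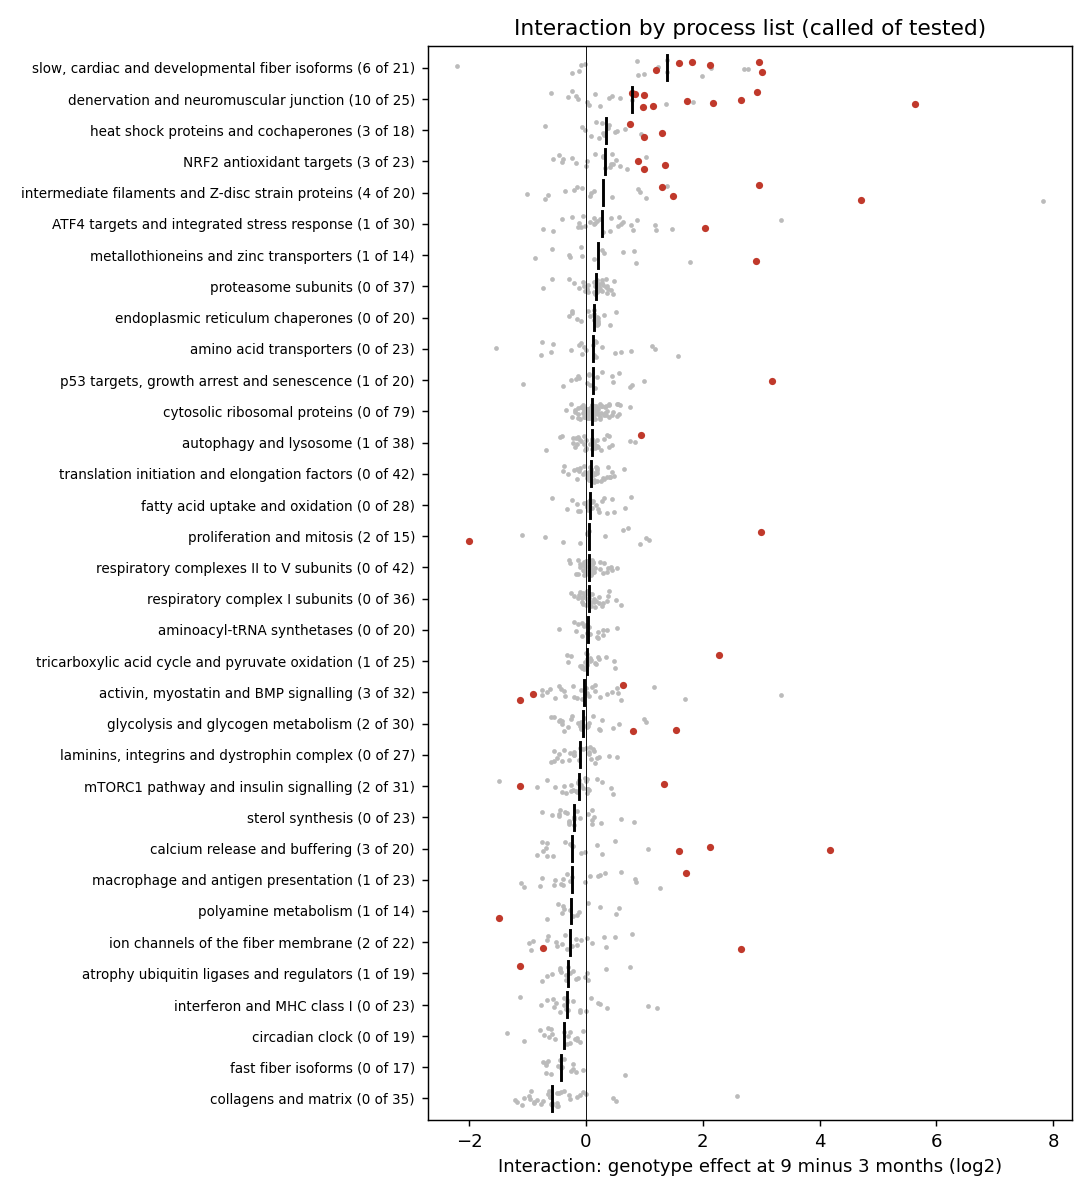
Interaction (genotype effect at 9 minus 3 months, log2) of each tested member of the 34 process lists, ordered by the list's median (black bar), with called members in red, others in grey and the number called of tested beside each name. The denervation list holds 10 red points, all to the right of zero, and the collagen list, lowest in median of the 34, holds none.

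The other 20 libraries of the series came from mice of the same groups that received rapamycin, an inhibitor of mTORC1, over 3 days, and give the same interaction in libraries that played no part in the calls above. Of 12990 genes tested there, 46 (0.354%) were called, 27 positive and 19 negative, and 1206 had an unadjusted p under 0.05. Without 3mCON+RM replicate 4 the number was 21, without 3mCON+RM replicate 1 or 9mCON+RM replicate 5 it was 30, without 9mTSCmKO+RM replicate 4 it was 26 and without 9mTSCmKO+RM replicate 1 it was 94. Of the 312 genes called in vehicle libraries, 273 were tested, 237 of them had the same sign and 15 were called, all of those with the same sign. The estimate was smaller in size for 263 of the 273. Because the genes were chosen for a large estimate in the vehicle libraries, a smaller one in other libraries does not by itself show an effect of rapamycin. The median of the 201 positive genes was 1.47 in vehicle and 0.53 in rapamycin libraries, and of the 72 negative genes -1.02 and -0.34.

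The difference between the 2 treatments was tested in a fit of all 40 libraries. It passed for 5 of 13543 genes (0.0369%), with 859 at an unadjusted p under 0.05, and 3 of the 5, Map1b, Stbd1 and Scn3b, were interaction genes. Map1b had an interaction of 0.89 in rapamycin libraries (adjusted p of the difference 0.0113) and Stbd1 of 0.22 (adjusted p of the difference 0.00698). Ncam1, with -0.02 in rapamycin libraries against 1.73 in vehicle, stood just above the threshold (adjusted p of the difference 0.0591), and Ces1d was among the 15 called under both, at -1.65 (adjusted p = 0.0375). Runx1 and Uchl1 had rapamycin estimates of 1.24 (adjusted p = 0.0965) and 1.87 (adjusted p = 0.0677), and the difference was not called for either.

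**Figure D5:**
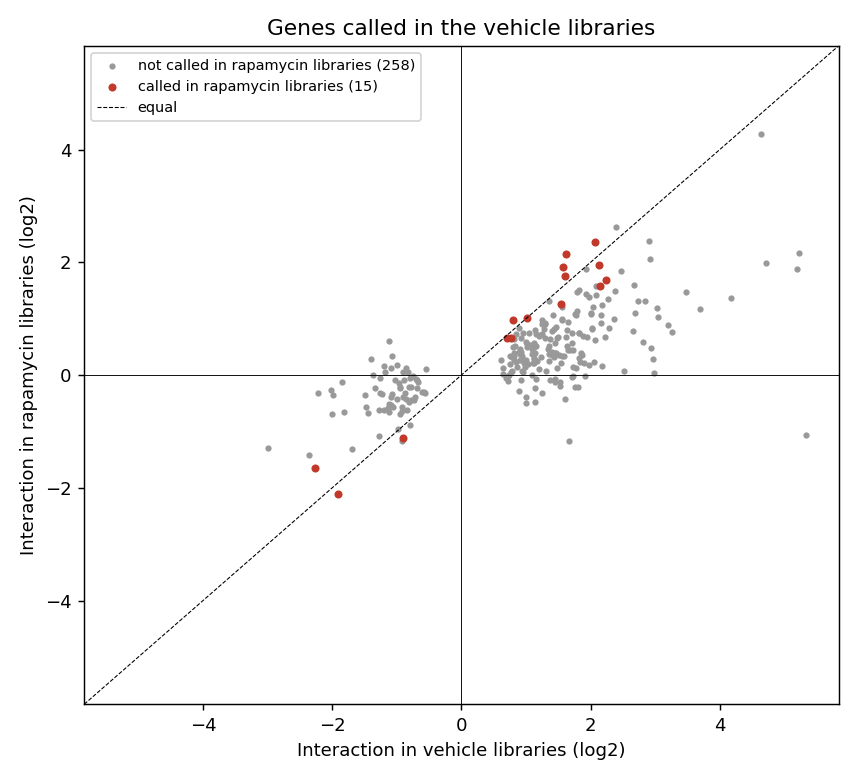
Interaction in the 20 vehicle libraries (horizontal) and in the 20 rapamycin libraries (vertical), log2, for the 273 genes called in vehicle and tested in both. The 15 red points were also called in the rapamycin libraries, and most points lie between the horizontal axis and the dashed line of equal values.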

How the data were processed

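Vehicle EDL libraries (5 in each of 4 groups, 1 labelled sample each) were analysed, with the 20 rapamycin libraries as a separate set. The authors trimmed directional polyadenylated-RNA reads with cutadapt 1.9.1 and assigned them with kallisto 0.43.1 to transcripts of GRCm38, where a read matching several transcripts was shared among them, so genes with near-identical copies are uncertain. The deposited estimated counts per gene were whole numbers, so the rounding step before the edgeR fits left them as they were. The authors' deposited TPM values, scaled by transcript length, served only for marker sums. No value column lacked a label.

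Of 22844 genes, 13261 with at least 1 CPM in at least 5 libraries were tested with edgeR 4.0.16 in R 4.3.3 (TMM scaling, robust quasi-likelihood F-test, 4 group means), with Benjamini-Hochberg adjustment over all genes. All p-values are two-sided. Log2 values use a prior count of 0.125. Each SE was derived from the test, as the absolute log2 value divided by the square root of its F statistic. It is therefore rough for genes with few counts. CPM is TMM-scaled. The code was tested on simulated data. Alternatives were other scalings, filters, DESeq2 1.42.0, limma voom 3.58.1 with quality weights, all 40 libraries, insert size, a replicate block and leaving out each library.

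The genes and lists were chosen with earlier results of these data known. The rule for named genes took Tsc1, every called denervation member (1 is not reported here), the 2 smallest adjusted p in each other list, and in each direction class the 4 largest interactions with a mean of at least 5 CPM in 1 group, no overlap of genotypes at the age of the larger effect and no predicted symbol. Other genes named as list members were chosen after their values were seen. Replicates differed by more than counting noise. Promoters came from RefSeq (GRCm38.p6), with 10175 of the tested genes matched, and gene positions from GENCODE M21, with 22813 genes matched.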

Additional observations from a re-analysis of the deposited data

Results flagged for a closer look

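The difference between the genotype effects at 9 and 3 months passed the interaction test for 312 genes, and the difference of that interaction between vehicle and rapamycin libraries for 5 genes.

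Among 220 groups of 5 libraries (the 4 groups of each of 55 named genes), 18 (8.18%) held 1 library far from the other 4 by Dixon's test, where chance gives about 1 in 20, or 11. In 3mCON these were replicate 3 for Uchl1 (3.702 CPM), Dkk3 (54.85 CPM, the lowest) and Prkcz (2.596 CPM, the lowest), and replicate 1 for Bmp1 (29.65 CPM) and Glra3 (0.1731 CPM). In 3mTSCmKO these were replicate 4 for Myom3 (16.71 CPM), Lgals3 (4.839 CPM) and Amd1 (1136 CPM), and replicate 2 for Stbd1 (22.71 CPM). In 9mCON these were replicate 2 for Stbd1 (41.03 CPM) and Chrna1 (45.12 CPM), replicate 1 for Irs2 (25.25 CPM, the lowest) and replicate 5 for Glra3 (0.05309 CPM). In 9mTSCmKO these were replicate 3 for Adh7 (55.93 CPM), Cryab (2274 CPM) and Chrna1 (91.21 CPM), and replicate 5 for Rian (230.9 CPM) and Amd1 (652.7 CPM). Values not marked as lowest were the highest of their group. The calls of Uchl1, Stbd1, Dkk3, Adh7, Myom3, Lgals3, Cryab and Bmp1 held in every fit without 1 library.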

How the results depend on the processing

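Of 1587 values of the 54 called named genes under the alternatives, 1335 kept direction and call, 252 lost the call and 0 reversed, and 34 genes kept the call in all 20 fits without 1 library. Chrng and Krt18 kept it in the 15 that tested them. The genotype-by-age interaction was called for 570 genes by DESeq2 (364 positive, 206 negative; larger 463, smaller 90, opposite 17; age effect in CON 196), 669 with all 40 libraries (407 and 262; 536, 110 and 23; age in CON 138; rapamycin interaction 30) and 1003 by limma voom with quality weights (615 and 388; 759, 171 and 73; 3-month effect 4500; age in CON 386). Positive shares there were 63.9%, 60.8% and 61.3%. Without a filter the smaller class was 19, the opposite class 7 and age in CON 20. With insert size as a term the smaller class was 19, age in TSCmKO 178 and age in CON 2. With the replicate block the interaction gave 274, the smaller class 21 and age in CON 2; replicate numbers did not pair the samples (30 same-number pairs, correlation -0.38 to 0.305, 4 libraries correlating best with their own number). Without the 4 outlying libraries, an alternative chosen after seeing the data, the interaction gave 492 (192 negative), the smaller class 78, the opposite class 49, the 3-month effect 3745 and the slow fiber list 3. Fits without 1 library gave 190 to 476 interaction calls (142 to 330 positive, 35 to 146 negative), 165 to 402 larger, 13 to 67 smaller and 6 to 18 opposite, 1 to 274 for age in CON, 6 to 11 denervation and 5 to 7 slow fiber members, and 21 to 94 rapamycin calls. The cause of these shifts was not tested. Low counts outside 9mTSCmKO, at most 7 in a library for Chrng and 11 for Glra3, limit the size of those effects.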

Other observations

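Genes called outside the lists are given here by values alone, as examples chosen after their values were seen. Nefm, a neurofilament subunit, averaged 0.415 ± 0.149 CPM (SD, n = 5) in 3mCON, 0.377 ± 0.1248 CPM in 3mTSCmKO, 0.391 ± 0.229 CPM in 9mCON and 4.15 ± 1.16 CPM in 9mTSCmKO (interaction 3.48 ± 0.52, adjusted p = 0.000603). Ndrg4 averaged 3.92 ± 0.964, 3.86 ± 0.922, 3.47 ± 0.873 and 22.2 ± 5.74 CPM in the same order (interaction 2.69 ± 0.31, adjusted p = 3.03e-05). Syn2, a synapsin of synaptic vesicles, averaged 1.22 ± 0.301, 2.404 ± 0.251, 0.987 ± 0.316 and 10.4 ± 4.55 CPM (interaction 2.38 ± 0.45, adjusted p = 0.00426). Nefm passed the filter of 1 CPM in 5 libraries only through 9mTSCmKO.

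Fgf7, a fibroblast growth factor, averaged 9.77 ± 1.80, 17.02 ± 4.22, 6.58 ± 1.66 and 35.7 ± 6.38 CPM (interaction 1.64 ± 0.27, adjusted p = 0.00176). Gys2, the glycogen synthase of liver, averaged 0.175 ± 0.0815, 0.159 ± 0.101, 0.161 ± 0.0507 and 2.11 ± 1.05 CPM (interaction 3.85 ± 0.75, adjusted p = 0.0062), and it too passed the filter only through 9mTSCmKO. Cyb5r3, a cytochrome b5 reductase, averaged 47.8 ± 3.36, 71.7 ± 9.63, 47.5 ± 6.16 and 175.8 ± 19.4 CPM (interaction 1.30 ± 0.16, adjusted p = 7.36e-05).

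S100a9, a protein of neutrophils, was called with a smaller effect at 9 months (interaction -5.79 ± 1.41, adjusted p = 0.0335). It would not have met the filter without 3mTSCmKO. It was counted at 0.473, 1.43, 3.33, 20.9 and 0.37 CPM in 3mTSCmKO, and without replicate 4 of that group the interaction was -3.84 ± 0.99 (adjusted p = 0.0357). In replicate 4 the summed level of 8 leukocyte markers was 118 TPM, against a median of 10.9 TPM in 3mTSCmKO and 2.64 to 19.2 TPM in the other 3 groups, and the part of these cells in the result was not tested.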
